A study of Homo sapiens with 4 samples.

Results

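The hnRNP genes described here are HNRNPA1, HNRNPA2B1, HNRNPC, HNRNPD, HNRNPH1, HNRNPK and HNRNPL, taken as the poly(A) regions that lie on the strand of each gene within a window of hg19 coordinates. The windows held 48 of the 31081 poly(A) regions of the table. HNRNPA2B1 had 15 of them, HNRNPD 10, HNRNPL 6, HNRNPC 5, and HNRNPA1, HNRNPH1 and HNRNPK 4 each. The data are read counts from poly(A) site sequencing, in which each read marks where a transcript was cut and given its poly(A) tail, in 4 libraries of the human line DICER(ex5). This line derives from HCT116, a colon cancer cell line, and is labelled a hypomorph for Dicer, the ribonuclease that cuts microRNA precursors. All 4 libraries carry that status and were grown in McCoy's 5A medium with serum. The series has no library of parental HCT116 cells, so the comparisons are between regions of a gene, between genes and between libraries, and nothing below is an effect of Dicer. The design calls the libraries biological replicates, and the labels do not say whether the line is 1 clone. The table names no genes, and the DICER1 transcript and markers of the line were not analysed here.

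Heterogeneous nuclear ribonucleoproteins (hnRNPs) are abundant nuclear proteins that coat newly made RNA and act on splicing, export, stability and 3' end processing. hnRNP A1 and hnRNP A2/B1 are related proteins with paired RNA recognition motifs that often oppose SR proteins in splice site choice. hnRNP C binds uridine-rich stretches, hnRNP H1 binds runs of guanosine, hnRNP K binds cytidine-rich RNA through KH domains, hnRNP L binds CA repeats, and hnRNP D (AUF1) binds AU-rich elements and promotes decay of the mRNAs that carry them. Several genes of the family regulate their own mRNA through alternative splicing, and a transcript can also end at more than one poly(A) site.

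HNRNPK is of added interest in a Dicer hypomorph because an intron of it carries a microRNA precursor. In the RefSeq table of GRCh38, both mature products of MIR7-1 lie within the bounds of HNRNPK. The main product is shown to name this Dicer substrate, with its seed (bases 2 to 8) in capitals. MicroRNA levels were not measured in these libraries.
hsa-miR-7-5p: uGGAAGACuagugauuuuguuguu

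The library totals ranged from 2163977 reads (library 2) to 5713530 (library 3), and the hnRNP windows took 0.375%, 0.367%, 0.424% and 0.427% of the reads in libraries 1 to 4. Levels are given as CPM, the counts scaled to the same library total, summed over the regions of a gene. Each transcript end gives its reads at 1 place, so these levels need no scaling to transcript length. Fewer cells with a transcript and fewer transcripts per cell cannot be told apart in such bulk samples. Libraries 1 and 2 resembled each other, as did libraries 3 and 4, over the whole table and in the hnRNP genes. No label or header names a batch, so values are given for each library, and the mean ± SD over the 4 includes this division. What separates the libraries was not tested.

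The hnRNP genes differed widely in level. HNRNPA2B1 had the highest level, with 2546, 2598, 2314 and 2346 CPM in libraries 1 to 4 (2451 ± 142; SD, n = 4). Its locus ranked 15 among the 17963 loci made by joining regions of a strand within 5 kb. HNRNPD followed with 474, 397, 603 and 638 CPM (528 ± 112; SD, n = 4), and the lowest HNRNPA2B1 library lay above the highest HNRNPD library. HNRNPK had 281, 273, 359 and 363 (319 ± 49.0; SD, n = 4), below HNRNPD in every library and with no overlap of the ranges. The loci of HNRNPD and HNRNPK ranked 257 and 533.

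HNRNPA1 varied most between libraries, with 143, 95.7, 528 and 489 CPM (314 ± 226; SD, n = 4). Libraries 3 and 4 were 3.43-fold to 5.52-fold above libraries 1 and 2. Its range spans those of HNRNPK and HNRNPC, and it was above each of these genes in 2 of 4 libraries, so its place in the order of levels changes with the library. HNRNPC had 175, 165, 228 and 248 CPM (204 ± 40.4; SD, n = 4). It lay above HNRNPH1 in all 4 libraries, with no overlap of the ranges.

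HNRNPH1 had 68.7, 61.5, 155 and 134 CPM (105 ± 46.7; SD, n = 4). HNRNPL was lowest by its mean, with 63.7, 82.3, 54.4 and 53.7 (63.5 ± 13.3; SD, n = 4). The ranges of HNRNPH1 and HNRNPL overlapped, and HNRNPH1 was the higher in 3 of 4 libraries. The loci of HNRNPA1, HNRNPC, HNRNPH1 and HNRNPL ranked 487, 955, 2043 and 3624.

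In 5 of the genes (HNRNPA1, HNRNPC, HNRNPD, HNRNPH1 and HNRNPK) each of libraries 3 and 4 was higher than each of libraries 1 and 2. Among all 3735 loci with 1000 reads or more, 40.4% were. HNRNPA2B1 and HNRNPL were higher in each of libraries 1 and 2, as 36.6% of those loci were. TMM, another way to scale libraries, gave factors of 1.049, 1.027, 0.963 and 0.965 for libraries 1 to 4, which also divide the pairs. With TMM the SD of HNRNPA2B1 over the libraries was 55.7 in place of 142. The size of its small spread between libraries thus depends on the scaling. Whether each of libraries 1 and 2 stays higher with TMM was not examined. A level that separates the library pairs is therefore common in the table and not a result about the hnRNP genes. The sizes were unequal: the 4 libraries of HNRNPA2B1 lay between 2314 and 2598, while HNRNPA1 moved over 3-fold.

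**Figure D1:**
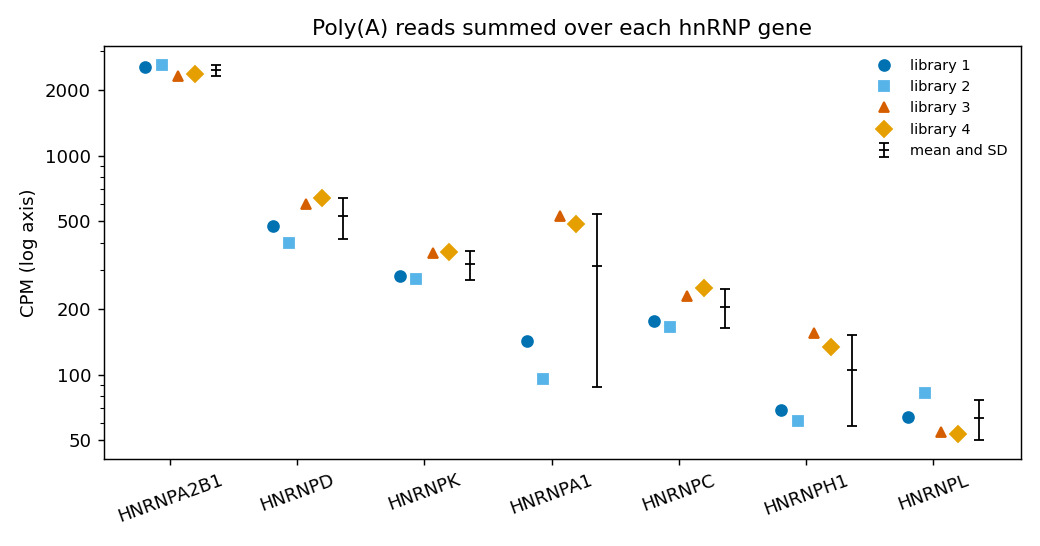
CPM (log axis) summed over the poly(A) regions of each hnRNP gene; symbols are the 4 libraries, and the bar beside them is the mean with its SD (n = 4). HNRNPA2B1 lies at 2314 or above in every library, and HNRNPA1 goes from 143 and 95.7 in the first pair of libraries to 528 and 489 in the second.

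How many poly(A) sites each gene used was asked next. A region was counted as used (a passing region) when its reads, summed over the libraries, came to 10 or more and to at least 5% of those of its gene. All 7 genes had several: 5 in HNRNPL, 4 in HNRNPC, 3 each in HNRNPA1, HNRNPD and HNRNPH1 and 2 each in HNRNPA2B1 and HNRNPK. Of all loci with 1000 reads or more, 46.7% had several. The counts depend on the setting. HNRNPA2B1 had 1 passing region with a 10% minimum, and HNRNPK had 1 with 3' ends within 100 bases merged. The most 5' region of HNRNPH1 held 12.8% and 27.8% of its gene in libraries 1 and 2, but 3.72% and 4.88% in libraries 3 and 4. The 22 passing regions included 1 at 5.73% of its gene (HNRNPA2B1), the nearest above the minimum, and the nearest below it held 3.57% (HNRNPL). The strongest region was the most 3' passing one in 2 genes, HNRNPH1 and HNRNPL, against 49.3% of the 5070 loci with several passing regions and 100 reads. In the other 5 genes the strongest region lay 77 to 1830 bases 5' of the most 3' passing one. Strongest here refers to reads summed over the libraries. In libraries 1 and 2 another region led in HNRNPA1 and HNRNPH1. The most 3' region of HNRNPA1 gave 63.9 and 43.4 CPM there, against 57.8 and 37.4 at its strongest. The HNRNPH1 region 233 bases 5' of its strongest gave 38.8 and 30.5 CPM there, against 19.0 and 13.4.

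**Figure D2:**
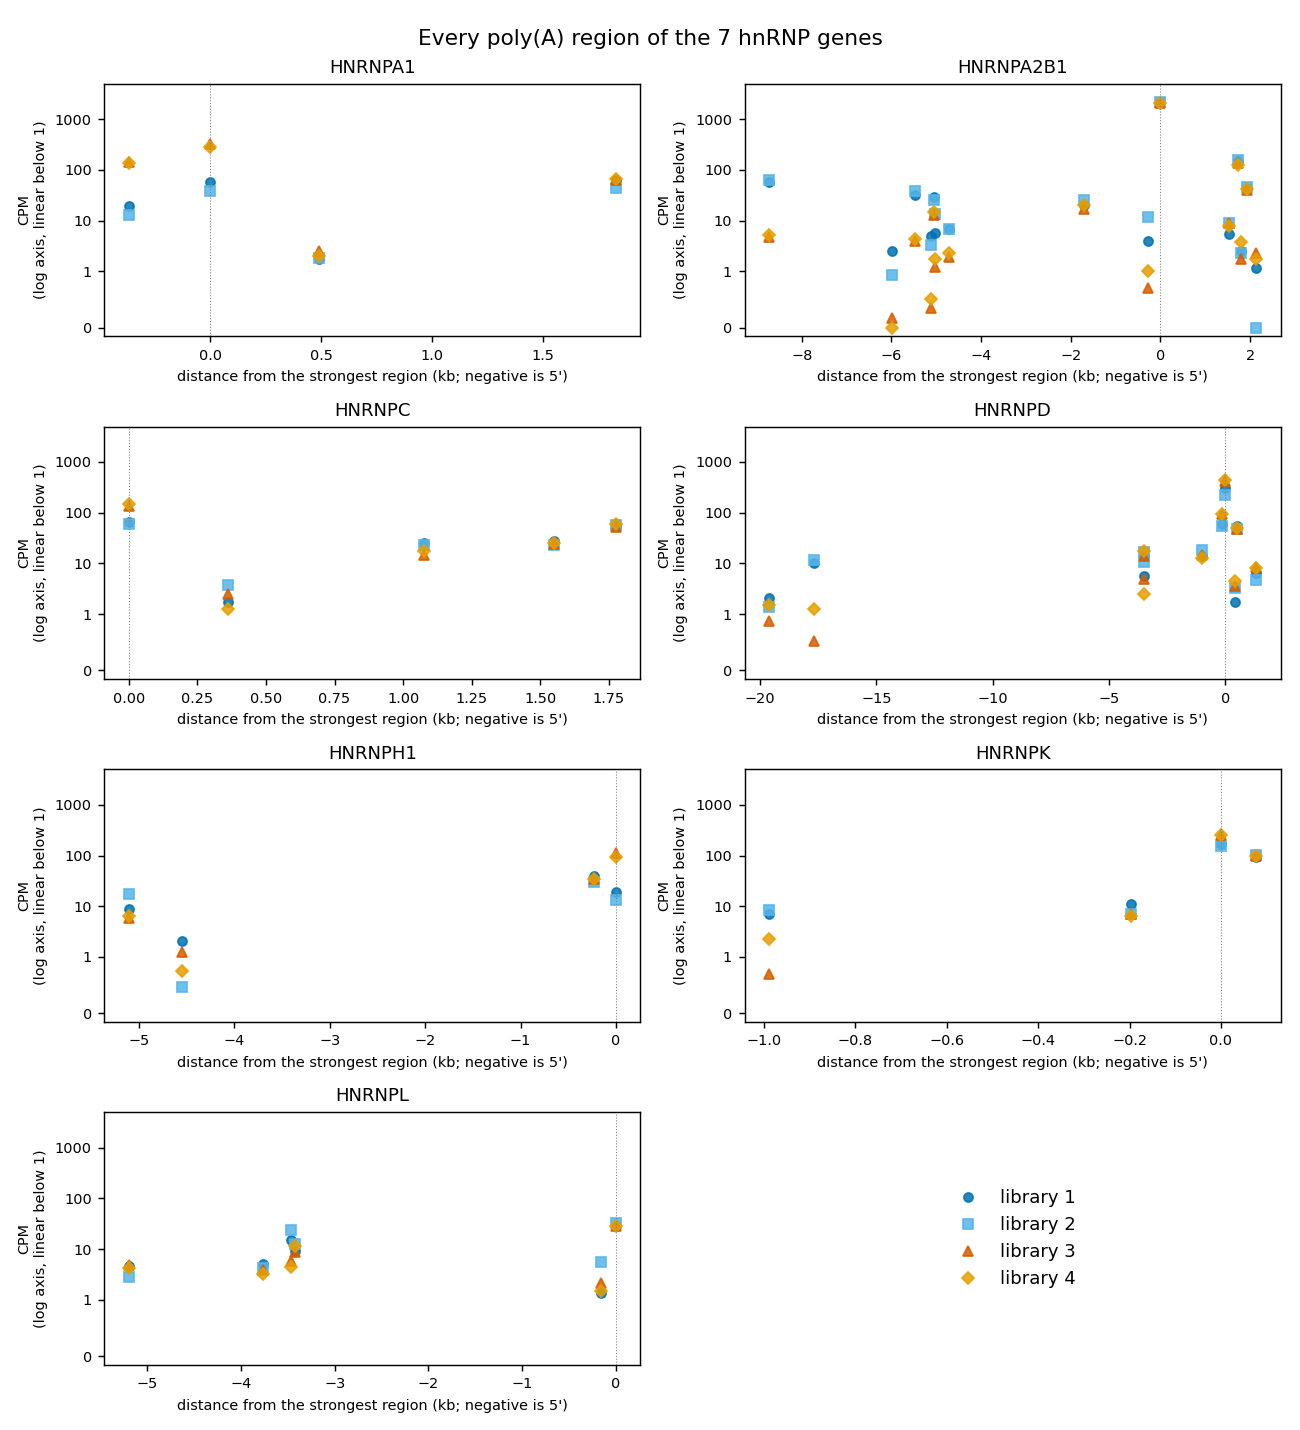
Level of each of the 48 regions in the 4 libraries (log axis, linear below 1 CPM) against the distance of its 3' end from that of the strongest region of the gene, in kb along the transcript with negative values 5'. In HNRNPA2B1 the regions over 4 kb 5' of the strongest are higher in libraries 1 and 2 than in libraries 3 and 4, while the strongest region lies between 2084 and 2196 in all 4.

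HNRNPA1 (plus strand of chromosome 12) had its strongest region at 54678990 to 54679051. It gave 57.8, 37.4, 322 and 282 CPM in libraries 1 to 4 (175 ± 148; SD, n = 4). A region 368 bases 5' of it, at 54678637 to 54678683, gave 19.4, 12.9, 140.0 and 139 (77.8 ± 71.2; SD, n = 4). Both were far higher in libraries 3 and 4, by 4.88-fold to 8.59-fold at the strongest region and by 7.16-fold to 10.8-fold at the more 5' one. Among all 15359 regions with 100 reads or more, 2.84% were over 2-fold higher in each of libraries 3 and 4 than in each of libraries 1 and 2. The level of the more 5' region was 0.336, 0.346, 0.435 and 0.492 times that of the strongest.

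The most 3' region of HNRNPA1, at 54680850 to 54680881 and 1830 bases past the strongest, gave 63.9, 43.4, 63.7 and 66.5 CPM (59.4 ± 10.7; SD, n = 4). Here library 2 was lowest and the other 3 libraries lay together. The difference in the level of HNRNPA1 between the library pairs thus lay almost wholly at its 2 more 5' sites. The share of the most 3' region among passing reads (the distal share) was 45.3% in library 1 and 46.3% in library 2 but 12.1% in library 3 and 13.7% in library 4. In library 2 the whole gene had 207 reads. A region between these sites, at 54679482, held 35 reads over the 4 libraries.

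The HNRNPA1 sequence recurs in the genome, which limits its counts. The RefSeq table lists 75 pseudogene entries named for HNRNPA1, against 9 for HNRNPC, 5 for HNRNPK, 3 for HNRNPH1, 2 each for HNRNPD and HNRNPL and 0 for HNRNPA2B1. No source used here says how reads that match several places were treated, so reads of HNRNPA1 may be split with near-identical copies. Their part in the values above was not tested.

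HNRNPA2B1 (minus strand of chromosome 7) was read almost entirely at 1 site. The region at 26231451 to 26231556 gave 2184, 2196, 2084 and 2117 CPM (2145 ± 53.7; SD, n = 4), and the highest library was 1.05-fold above the lowest. It took 85.8%, 84.6%, 90.0% and 90.2% of the reads of the gene. The second passing region, 1733 bases 3' of it at 26229718 to 26229783, gave 147, 155, 136 and 125 CPM (141 ± 13.2; SD, n = 4). A further region past that one, at 26229525 to 26229560, held 1.73% of the reads and gave 43.9, 46.7, 39.2 and 41.2 CPM. The sites that carry the bulk of HNRNPA2B1 reads thus differed little between libraries.

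The regions of HNRNPA2B1 that lie 5' of its main site behaved otherwise. There were 9 of them, none passing, and together they took 6.38%, 7.26%, 1.83% and 2.14% of the reads of the gene in libraries 1 to 4. The most 5' region, 8729 bases from the strongest at 26240180 to 26240214, gave 57.0, 62.8, 4.73 and 5.27 CPM. Libraries 1 and 2 were 10.8-fold to 13.3-fold above libraries 3 and 4 there.

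The region at 26236921 to 26236957 gave 31.9, 38.8, 4.03 and 4.27 CPM, with libraries 1 and 2 higher by 7.47-fold to 9.64-fold. Both of these regions lie in the 7.15% of all regions with 100 reads that were over 2-fold higher in each of libraries 1 and 2 than in each of libraries 3 and 4. The other upstream regions with 100 reads or more moved less. The one at 26236512 to 26236545 gave 29.0, 25.4, 12.6 and 14.8, and the one at 26233152 to 26233226 gave 20.5, 25.4, 16.6 and 20.3. The other 5 upstream regions had 16 to 73 reads each, and all 5 were higher in each of libraries 1 and 2. Among all 15359 regions with 100 reads or more, 34.7% were, and these 5 lie below that read minimum. On so few reads the difference was 3.06-fold to 3.60-fold at 26236168 and 6.44-fold to 14.3-fold at 26236564. Another of these 5, at 26237444, had 0 reads in library 4, which allows up to 0.753 CPM there. The files name no exon or intron, and priming on A-rich stretches inside the transcript was not examined.

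HNRNPC (minus strand of chromosome 14) used 4 sites within 1776 bases. The strongest and most 5' one, at 21679066 to 21679097, gave 66.4, 60.1, 134 and 146 CPM (102 ± 44.5; SD, n = 4). Libraries 3 and 4 were 2.02-fold to 2.42-fold above libraries 1 and 2 at this site. The most 3' one, at 21677290 to 21677320, gave 53.9, 55.9, 53.2 and 59.2 (55.6 ± 2.70; SD, n = 4). The level of the distal site was 0.812, 0.931, 0.397 and 0.407 times that of the strongest in libraries 1 to 4, so that they were nearly level only in the first pair of libraries.

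Of the sites between them in HNRNPC, that at 21677514 to 21677595 gave 28.0, 22.6, 24.3 and 24.8 CPM, and its library pairs overlapped. The site at 21677988 to 21678025 gave 24.8, 23.1, 14.4 and 17.3, higher in libraries 1 and 2. The distal share was 31.2%, 34.6%, 23.5% and 24.0%. No region was listed 5' of the strongest in the window of this gene.

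HNRNPD (minus strand of chromosome 4) had 10 regions spread over 20946 bases, but its 3 passing ones lay within 644. The strongest, at 83274974 to 83275005, gave 306, 228, 416 and 445 CPM (349 ± 100.4; SD, n = 4). A neighbour 135 bases 5' of it, at 83275109 to 83275157, gave 59.1, 54.5, 93.1 and 94.1 (75.2 ± 21.3; SD, n = 4). The level of the neighbour was 0.217 ± 0.0195 (SD, n = 4) times that of the strongest, with little change between libraries. The distal region, 509 bases 3' of the strongest at 83274465 to 83274509, gave 54.9, 48.5, 47.6 and 50.7 (50.4 ± 3.24; SD, n = 4). The library difference of HNRNPD thus lay at the proximal pair of sites, which were higher in libraries 3 and 4, while the distal one differed by at most 1.15-fold.

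The remaining regions of HNRNPD were weak. The one 17703 bases 5' of the strongest, at 83292677 to 83292696, gave 10.4, 11.6, 0.525 and 1.25 CPM, and libraries 1 and 2 were 8.26-fold to 22.0-fold above libraries 3 and 4. It rests on 54, 25, 3 and 5 reads. A region further 5', at 83294593, had 25 reads in all and its library pairs overlapped. The pair at 83278489 and 83278462, near 3.5 kb 5', held 2.78% and 0.966% of the reads, and the first gave 14.01, 17.1, 13.8 and 17.6 CPM. A region past the distal one, at 83273647 to 83273658, held 1.33%.

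HNRNPH1 (minus strand of chromosome 5) had the largest difference in distal share between libraries, in percentage points. Its most 3' region, at 179041172 to 179041194, gave 19.0, 13.4, 113 and 91.6 CPM (59.2 ± 50.5; SD, n = 4). The region 233 bases 5' of it, at 179041405 to 179041445, gave 38.8, 30.5, 35.2 and 34.9 (34.8 ± 3.38; SD, n = 4). The distal region was at 0.490, 0.439, 3.21 and 2.63 times the level of its neighbour, below it in the first pair of libraries and above it in the second. The distal share was accordingly 28.5% and 22.0% against 73.4% and 68.9%. HNRNPH1 is thus the reverse of HNRNPA1, HNRNPC and HNRNPD in place, since here the site that was higher in libraries 3 and 4 is the distal one.

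The remaining passing region of HNRNPH1 lay 5106 bases 5', at 179046278 to 179046322. It gave 8.83, 17.1, 5.78 and 6.53 CPM, or 46, 37, 33 and 26 reads. It took 27.8% of the reads of the gene in library 2, where the gene had 133 reads. Another region, at 179045721, had 22 reads.

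HNRNPK (minus strand of chromosome 9) ended at 2 sites 77 bases apart. The strongest, at 86583064 to 86583121, gave 168, 155, 253 and 256 CPM (208 ± 53.9; SD, n = 4). The distal one, at 86582987 to 86583018, gave 94.2, 103, 98.4 and 99.1 (98.6 ± 3.44; SD, n = 4). The distal share was 35.9%, 39.9%, 28.0% and 28.0%. At this spacing the 2 regions may be read as 1 broad end, and merged they held 95.8% of the reads of the gene.

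The other regions of HNRNPK were minor. The one 989 bases 5' of the strongest, at 86584053 to 86584099, gave 7.10, 8.32, 0.700 and 2.26 CPM (37, 18, 4 and 9 reads), with libraries 1 and 2 higher. Its place relative to the miR-7-1 hairpin was not determined, since the table of the hairpin is on another build. The region at 86583261 to 86583280 gave 11.3, 6.93, 7.001 and 6.53, with library 1 alone high.

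HNRNPL (minus strand of chromosome 19) had the fewest reads, 1035 over the 4 libraries, and the most passing regions at the 5% minimum. With 3' ends within 100 bases merged it had 4, as did HNRNPC. With a 10% minimum it had 3, as did HNRNPA1 and HNRNPC. The most 3' passing region, at 39327005 to 39327027, was also the strongest and gave 28.2, 33.3, 28.9 and 28.9 CPM (29.8 ± 2.33; SD, n = 4). The other 4 passing regions lay 3426 to 5196 bases 5' of it. That at 39330476 to 39330509 gave 15.4, 24.0, 5.95 and 4.52 CPM, and libraries 1 and 2 were 2.58-fold to 5.32-fold higher. The adjacent one at 39330431 to 39330463 gave 9.21, 12.5, 8.75 and 11.3, and its library pairs overlapped although it ends only 45 bases away.

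The remaining pair of upstream sites in HNRNPL, at 39330770 to 39330794 and 39332201 to 39332224, gave 4.07 ± 0.719 and 4.14 ± 0.945 CPM (SD, n = 4). The distal share of HNRNPL was 45.2%, 43.4%, 55.2% and 55.3%. It was lower in libraries 1 and 2, where the site at 39330476 was high. A plus-strand region at 39330472 to 39330506 overlaps that site by 31 bases and gave 17.3, 18.9, 18.4 and 14.8 CPM, so the steep difference between libraries was on the minus strand.

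**Figure D3:**
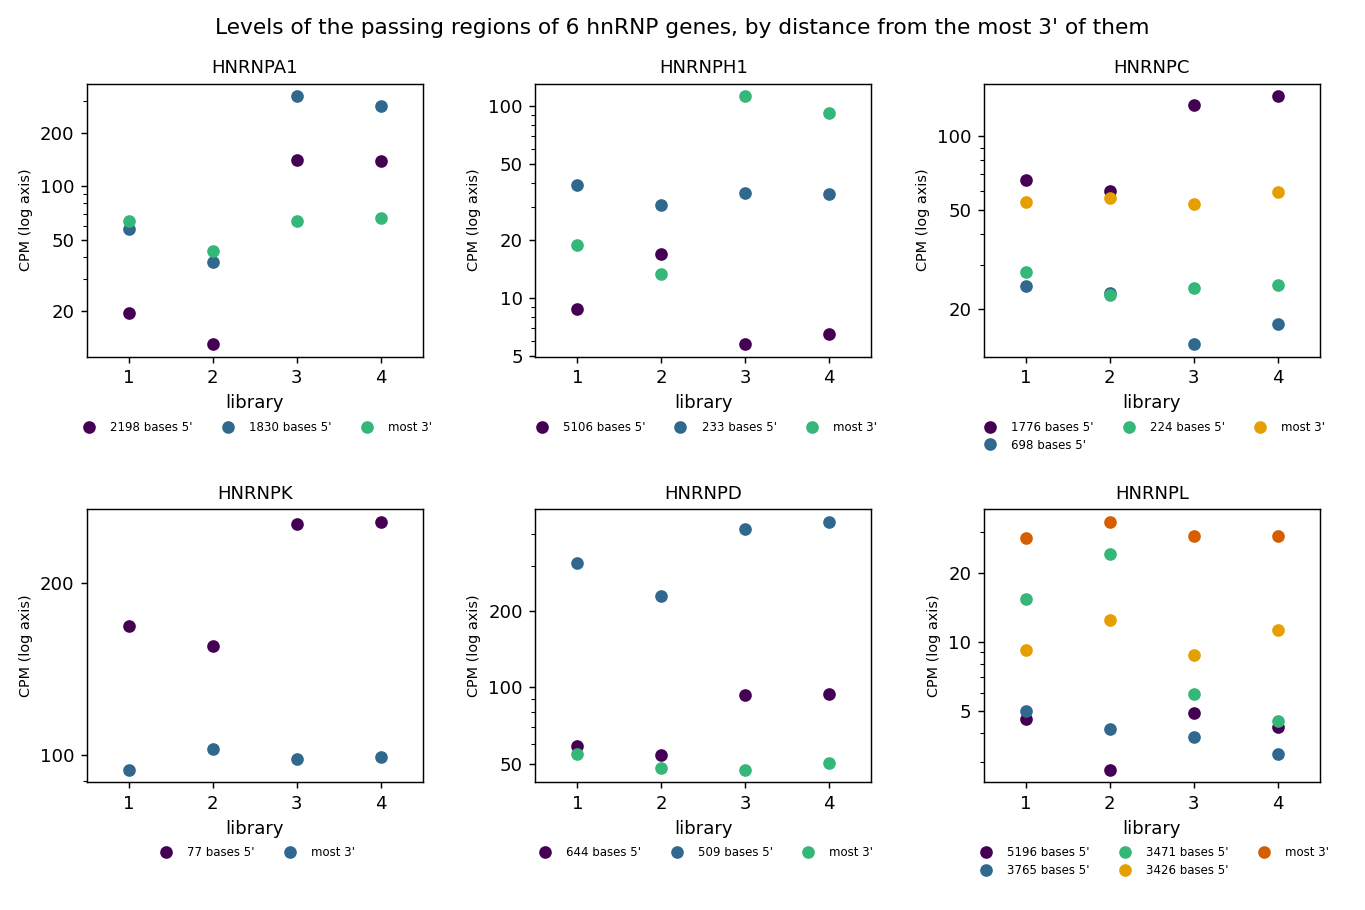
CPM (log axis, scaled per panel) of the passing regions of 6 hnRNP genes in libraries 1 to 4, coloured by the distance of their 3' ends from the most 3' passing region. In HNRNPA1, HNRNPC, HNRNPD and HNRNPK the most 3' region differs by at most 1.53-fold between libraries and the strongest region is higher in libraries 3 and 4, while in HNRNPH1 the most 3' region is the one that differs.

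The spread of each region between libraries was compared with that of the table. Of the 30 hnRNP regions with 100 reads or more, 20% differed by under 1.2-fold between the highest and the lowest library, against 15.4% of all such regions. With 1000 reads or more, 18.2% of 11 did, against 31.7%, so sites this steady were not more common among the well read hnRNP regions. The highest library exceeded the lowest by 1.05-fold at the main site of HNRNPA2B1, 1.09-fold at the distal site of HNRNPK, 1.11-fold at that of HNRNPC, 1.15-fold at that of HNRNPD, 1.18-fold at that of HNRNPL and 1.53-fold at that of HNRNPA1. In HNRNPH1 the steadiest site was the proximal neighbour, with 1.27-fold. The same ratio had a median of 1.66 over the 30 hnRNP regions, against 1.47 over the 15179 such regions of the table with reads in all libraries. Over the 11 hnRNP regions with 1000 reads or more it was 1.73, against 1.29 over 3453. Of these 11, 4 differed over 2-fold (both proximal sites of HNRNPA1, the strongest of HNRNPC and the distal of HNRNPH1), against 9.18% of the 3453. Regions enter such sets on reads summed over the libraries, so a site can enter through the libraries in which it is high. The most 5' HNRNPA1 site had 800 and 553 of its 1482 reads in libraries 3 and 4, and the HNRNPH1 site 645 and 365 of 1138. The HNRNPA1 sites are also not independent of each other, and no excess is read from these comparisons.

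Of the 30 hnRNP regions with 100 reads, 4 were over 2-fold higher in each of libraries 3 and 4, the same 4 as above, against the 2.84% given for all regions. In the other direction there were 3, which were the 2 HNRNPA2B1 regions named and the HNRNPL region at 39330476, against 7.15%. All 3 lay 5' of the strongest region of their gene, as did 13 of the 30 regions, and 2 of the 3 belong to HNRNPA2B1. The other 23 did not separate the libraries by 2-fold. The members of a gene share its transcripts, so they are not independent of each other. These regions were also taken on summed reads, and no excess is read from their counts.

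The reads of each gene were then divided into those 5' of, in and 3' of its strongest region. The strongest region took a higher share in each of libraries 3 and 4 than in each of libraries 1 and 2 in all 7 genes, as it did at 44.4% of the 2565 loci with several regions and 1000 reads. The strongest region was picked on reads summed over the libraries. In HNRNPA1 and HNRNPH1 it led only in libraries 3 and 4, so the choice itself favoured a higher share there. Libraries 3 and 4 together also hold more reads than libraries 1 and 2, so they weighed more in the choice of the strongest region. The share 5' of it was higher in libraries 1 and 2 in 5 genes (HNRNPA2B1, HNRNPD, HNRNPH1, HNRNPK and HNRNPL), against 38.5% of those loci, and lower in HNRNPA1, against 16.5%. In HNRNPK it was 6.57% and 5.59% against 2.14% and 2.42%. The median of that share over the 2565 loci was 6.38%, 6.62%, 4.37% and 4.48% in libraries 1 to 4, so the direction of the 5 genes was also that of the table.

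**Figure D4:**
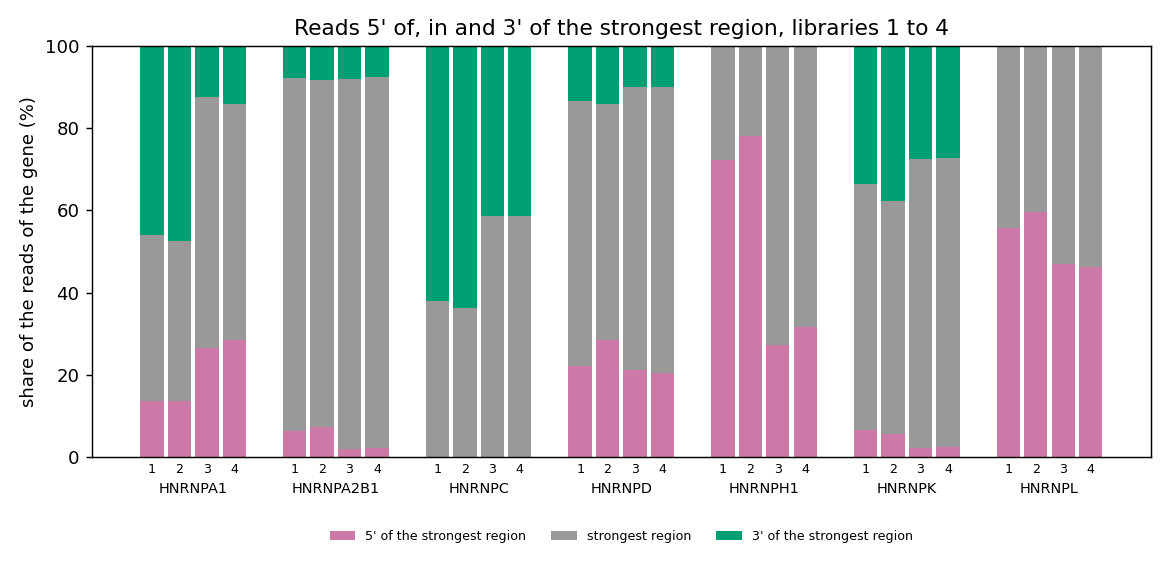
Share of the reads of each hnRNP gene that lie 5' of, in and 3' of its strongest region, in percent, 1 bar for each of libraries 1 to 4. The bars of libraries 1 and 2 resemble each other, as do those of libraries 3 and 4; in HNRNPH1 the strongest region goes from 27.7% and 21.8% to 72.8% and 68.5%.

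The distal share was higher in each of libraries 1 and 2 in 5 genes (HNRNPA1, HNRNPA2B1, HNRNPC, HNRNPD and HNRNPK), against 27.4% of 5069 loci with several passing regions. It was higher in each of libraries 3 and 4 in HNRNPH1 and HNRNPL, against 32.9%. Whether it differed between libraries beyond counting error was tested by Fisher's exact test (two-sided) on reads thinned at random to the smallest library, with Benjamini-Hochberg adjustment over all 5070 loci with several passing regions and 100 reads. The test compares libraries, not conditions, and treats reads as independent molecules. Between libraries 1 and 2 it called 0 of the 7 hnRNP loci, against 0.296% of all loci, and between libraries 3 and 4 it called 0, against 0.0592%. Against library 1 it called 2 of the 7 for library 3 (10.6% of all loci) and 4 for library 4 (8.86%). Against library 2 it called 5 for library 3 (15.8%) and 5 for library 4 (13.1%). The shares over all loci include loci with as few as 100 reads, while the hnRNP genes held 1035 to 41460 reads. A call depends on the number of reads. Those shares are therefore not matched to the hnRNP loci in depth, and no excess is read from them.

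HNRNPA1 and HNRNPH1 were called in all 4 of these comparisons. For libraries 2 and 4, which gave the largest of the 4 adjusted p for HNRNPA1, the thinned distal shares were 46.3% of 203 reads and 14.1% of 1058 (Fisher's exact test, adjusted p = 2.49e-20). For HNRNPH1 the largest was between libraries 1 and 4, with 27.8% of 151 reads against 69.05% of 294 (Fisher's exact test, adjusted p = 1.51e-14). HNRNPC, HNRNPD and HNRNPK were called in both comparisons with library 2. Between libraries 2 and 3 the adjusted p was 0.028 for HNRNPC, 0.00626 for HNRNPD and 1.66e-04 for HNRNPK (Fisher's exact test). The HNRNPD call was lost with a 10% share minimum, where another region became the distal one and the shares of library 2 no longer differed by the test from library 3 (adjusted p = 0.739, Fisher's exact test) or from library 4 (adjusted p = 0.749).

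Against library 1 the calls of these 3 genes on the distal share depended on the random thinning. HNRNPC and HNRNPD were called between libraries 1 and 4, at adjusted p = 0.00868 and 0.0454 (Fisher's exact test), and none of the 3 between libraries 1 and 3, where HNRNPK had an adjusted p of 0.0655. With the strongest region tested in place of the distal one, HNRNPC was called against library 1 on the same thinned counts. Its share was 37.4% in library 1 against 58.3% in library 3 (adjusted p = 1.07e-07, Fisher's exact test) and 62.4% in library 4 (adjusted p = 5.35e-12, Fisher's exact test). HNRNPD and HNRNPK were not called against library 1 in that setting. For the distal share with the counts not thinned, all 3 were called in all 4 comparisons, so 5 of the 7 genes were called in each. HNRNPA2B1 and HNRNPL were called in none, thinned or not. The lowest adjusted p of HNRNPA2B1 was between libraries 2 and 4, 0.147 on thinned counts and 0.0761 on counts not thinned (Fisher's exact test). The thinned shares there were 6.58% against 5.54% of 5088 and 4748 reads. For HNRNPL, whose shares rest on 113 to 166 thinned reads, libraries 2 and 4 gave 43.4% against 53.0%, with an adjusted p of 0.347 (Fisher's exact test). With counts not thinned its lowest adjusted p was 0.0642 (Fisher's exact test), for 45.2% of 325 reads in library 1 against 55.2% of 299 in library 3, and another random draw of the thinning gave 0.0566 for libraries 2 and 3.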

How the data were processed

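The authors deposited a table of raw read counts, 1 row for each poly(A) region with its place and strand and 1 column for each library, per the file headers. Bowtie2 2.2.5 and hg19 are named in the submitters' processing notes. The joining of reads into regions and any removal of duplicates are not given in the sources used here. Positions are printed as deposited. The files pair no region with a gene, so each gene is the rows inside a fixed window on its strand; all 7 symbols matched the RefSeq table (GRCh38), whose coordinates were not used. The planned list of other hnRNP genes needed an hg19 annotation and was not analysed here. Members, lists and tests were chosen with earlier results of these data known.

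Counts were scaled to the library total (CPM). Distal share is the share of the reads of passing regions in the most 3' one. Loci join regions of a strand within 5 kb. The test was run with scipy 1.17.1, and edgeR 4.0.16 and DESeq2 1.42.0 gave alternative scaling only. Tested on simulated data with distal reads tripled in library 1 at 200 of 5070 loci, the thinned test of libraries 1 and 3 recovered 41.5% and called 3 unchanged loci; with no change it called 0. The simulated libraries varied by sampling alone. The limit for a count of 0 is 3 counts, and it covers counting error only. Named were all 7 genes and every passing region. Of the regions that did not pass, only some were named. All regions are in the plot of level against distance from the strongest region. Alternatives changed the share minimum, the windows, the merging of ends, the scaling, the thinning and the region tested, or left out a library.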

Additional observations from a re-analysis of the deposited data

Results flagged for a closer look

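Among 65 values of genes and regions, 3 had 1 library well away from the rest; chance alone gives about 1 in 20. The distal region of HNRNPA1 gave 43.4 CPM in library 2 against 63.7 to 66.5 in the others. The HNRNPK region at 86583261 gave 11.3 in library 1 against 6.53 to 7.001. The distal region of HNRNPL gave 33.3 in library 2 against 28.2 to 28.9.

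Regions on the other strand of the windows are not part of the genes and also held reads. In the HNRNPL window, the plus-strand regions at 39330472 and 39333096 had 295 and 80 reads. In the HNRNPD window, a plus-strand region at 83296047 had 34 reads. Their transcripts are not named in the files.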

How the results depend on the processing

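No paired analysis was possible because the 4 libraries form 1 group. Mean levels of all 7 genes moved by less than 1 SD under TMM and DESeq2 scaling and with the 5 kb locus, which leaves out 2 regions of HNRNPD. Such means do not show whether the differences between libraries stayed the same. No hnRNP region had 5 bases or fewer, so leaving such regions out changed nothing. Distal shares depend on which regions count. With no share minimum they became 0.0546% for HNRNPA2B1 and 1.30% for HNRNPD, as a weak region further 3' then counted. With a 10% minimum they became 100% for HNRNPA2B1 (1 region left), 82.2% for HNRNPD and 58.0% for HNRNPL. With 3' ends within 100 bases merged, HNRNPK had 1 region, a distal share of 100% and a strongest-region share of 95.8%. At a 10% minimum HNRNPD was called between no libraries.

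Leaving out each library in turn gave levels of 243 to 387 for HNRNPA1, 88.0 to 119 for HNRNPH1 and 57.3 to 66.8 for HNRNPL. Their distal shares became 23.7% to 35.1%, 39.8% to 56.9% and 47.9% to 51.9%. All 7 genes stayed within 1 SD in level, distal share and strongest-region share, but this was fixed in advance. A mean over 4 libraries cannot move by 1 SD when a single library is left out, so that limit does not measure stability here.

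With counts not thinned, loci called numbered 35 (libraries 1 and 2), 1185 (1 and 3), 915 (1 and 4) and 12 (3 and 4), against 15, 539, 449 and 3. Draw 2 of the thinning, chosen after seeing the data, gave 24 for libraries 1 and 2 and 5 for libraries 3 and 4, and 4 of 7 hnRNP loci between libraries 1 and 3; draw 3 called 2 of 7 between libraries 1 and 4. Both kept the 5 called genes in the comparisons of library 2 with libraries 3 and 4. HNRNPH1 and HNRNPL had the fewest reads, 133 and 178 in library 2.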
